A study of Mus musculus with 6 samples.

Results

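The genes described here are 10 mouse genes grouped as Notch targets and effectors: Hes1, Hes5, Hes6, Hey1, Hey2, Heyl, Nrarp, Lfng, Rbpj and Maml1. They were chosen by name, with earlier results of these data known. All 10 were found by Ensembl identifier among the 52550 genes of the expression table. RNA sequencing had been carried out on liver cells of CD-1 embryos with the Sox9-GFP genotype, in which green fluorescent protein reports SOX9, a transcription factor of biliary cells. Each library came from a pool of 15 livers, which were dissociated, depleted of cells carrying hematopoietic lineage markers and sorted for GFP. Each stage, E16.5 or E18.5, had 3 libraries (replicates A, B and C), with neither a treatment nor a second genotype (the sample labels write embryonic days 16 and 18). The stage is the only difference between the groups that the labels give, and both were sorted on the same reporter. Nothing states that the pools of a stage came from separate litters or days, so p-values measure the spread between these libraries.

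In the Notch pathway, a ligand on one cell binds a receptor on its neighbor, proteases release the intracellular domain of the receptor, and this domain enters the nucleus. There it joins the DNA-binding protein RBPJ and a Mastermind coactivator, and the complex switches on genes of the Hes and Hey families, whose products are transcriptional repressors. In fetal liver, Notch signaling is known for directing hepatoblasts that lie next to the portal mesenchyme toward the biliary fate, and HES1 is needed for the ductal plate to form tubules. The same target genes are also used by blood vessels, where HEY proteins act in arterial endothelium and in vascular smooth muscle.

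RBPJ binds DNA at sites that hold the letters GTGGGAA, and Hey proteins can bind E-boxes such as CACGTG. The 250 bases before each start listed by RefSeq (GRCm38.p6) were searched on both strands for these letters. TTCCCAC is the reverse complement of GTGGGAA, and CACGTG reads the same on both strands. Windows were at hand for 7 members, while Hes1, Hey1 and Heyl had none and were not searched. GTGGGAA or its complement was found in 3 of the 7, Hes5, Hey2 and Lfng. Their windows are shown because, among the members searched, they carry the letters, in capitals. All 3 were low in these cells (values below). Hes5 lies at chr4:154960673-154960922 on the plus strand, Hey2 at chr10:30842784-30843033 on the minus strand and Lfng at chr5:140607091-140607340 on the plus strand, each printed 5′ to 3′ in the direction of transcription.
Hes5: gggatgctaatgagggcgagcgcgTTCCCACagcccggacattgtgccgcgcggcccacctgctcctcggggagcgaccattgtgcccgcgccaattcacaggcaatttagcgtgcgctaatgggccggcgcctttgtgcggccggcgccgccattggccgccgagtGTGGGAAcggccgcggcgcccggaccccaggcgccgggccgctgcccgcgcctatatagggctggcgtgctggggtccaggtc
Hey2: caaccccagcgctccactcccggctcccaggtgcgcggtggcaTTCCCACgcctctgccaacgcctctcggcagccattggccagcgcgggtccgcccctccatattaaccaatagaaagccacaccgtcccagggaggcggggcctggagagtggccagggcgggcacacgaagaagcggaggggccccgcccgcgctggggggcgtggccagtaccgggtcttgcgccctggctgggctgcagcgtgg
Lfng: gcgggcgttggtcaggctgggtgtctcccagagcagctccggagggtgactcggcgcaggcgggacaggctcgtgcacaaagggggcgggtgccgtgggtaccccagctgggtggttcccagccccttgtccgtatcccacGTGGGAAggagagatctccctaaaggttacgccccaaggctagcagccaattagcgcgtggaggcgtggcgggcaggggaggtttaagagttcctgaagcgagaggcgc
Counted from the base before the start as -1, the matches begin at -226 and -83 in Hes5, at -207 in Hey2 and at -109 in Lfng. CACGTG was found in Nrarp at -108 and in Lfng at -112, where it shares letters with the GTGGGAA match. The windows of Hes6, Rbpj and Maml1 held neither. RefSeq starts were not always those of the gene spans given below. The windows of Rbpj and a window of Hes6 lay inside those spans, so the bases just before the span of Rbpj were not searched. The windows of Hey2 and Lfng overlapped the edge of theirs. Of all 32851 windows in the table, 5.42% held GTGGGAA and 6.02% held CACGTG. A match describes letters only and is not a measured binding site.

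Levels are given as TPM, a measure of transcript abundance that is scaled by gene length and by the library total and so allows genes to be compared with each other. The reads behind the values were recovered from the TPM and came to between 13093937 and 26206374 per library, and every E18.5 library was shallower than every E16.5 library. Intervals and limits taken from reads cover counting error only. The 22452 genes averaging 1 TPM or more were tested for a difference between the stages with limma on log2(TPM + 1), and p-values were adjusted over all of them by the method of Benjamini and Hochberg. Fold changes are E18.5 over E16.5 on that scale, where the pseudocount makes changes of low genes look smaller. The median over all genes tested was 0.42, so TPM tended to be higher at E18.5, and it was 0.021 when the libraries were rescaled by the median of ratios. Changes are to be read beside that shift, and those of the members tested are given under both scalings. An exact two-sided permutation test on TPM was also run for each of the 10 members, but with 3 libraries against 3 it cannot go below 0.1. After adjustment over the 10 members the smallest value was 0.167.

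Marker transcripts of several cell types were present, and their levels differed between the stages. The 11 cholangiocyte markers summed to 954-2876 TPM in the E16.5 libraries and 8645-14670 TPM in those of E18.5, with 8 of 11 higher (4 with median-of-ratios scaling). Spp1 carried most of that sum at E18.5, and the other 10 markers summed to 485-1109 TPM and 2016-2550 TPM. The 11 hepatoblast markers tested summed to 177692-225612 TPM and 41321-101709 TPM, with 7 of 11 lower (6 after rescaling), so hepatoblast transcripts were abundant in libraries labelled cholangiocytes. The 9 mesenchyme markers went from 266-420 TPM to 567-996 TPM, with 4 of 9 higher (1 after rescaling). The 11 endothelial markers gave 157-253 TPM and 144-274 TPM, with 2 of 11 higher (Emcn and Egfl7) and 0 lower. After rescaling 0 of them were higher and 2 lower (Tie1 and Esam), so single markers moved in opposite directions. Of the megakaryocyte markers, 10 of 10 fell under both scalings. Counts of markers, here and for the smooth muscle, pericyte and arterial markers below, are to be read beside the shares of all genes tested. At an adjusted p under 0.05, 26.0% of these were higher and 5.22% lower, and after rescaling 6.81% and 10.4%. The part of these cell types in the results for the Notch genes was not tested, and in such bulk libraries fewer cells of a type and less RNA per cell cannot be told apart.

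The 10 genes covered a wide span of levels. In the E16.5 libraries Hes1 was the highest, followed by Hes6 and Maml1, whose libraries overlapped, and then Rbpj. Heyl, Lfng and Hey1 came next with overlapping libraries, then Nrarp and Hey2, again overlapping, and Hes5 was last. At E18.5 the order was Hes1, then Maml1 and Hes6 with overlapping libraries, then Rbpj. Hey1, Heyl, Lfng and Nrarp followed, each overlapping its neighbor, and Hey2 and Hes5 stood below them. The 4 most abundant genes were thus the same at both stages, whereas Hey1 went from below Heyl and Lfng to above them by its mean.

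**Figure D1:**
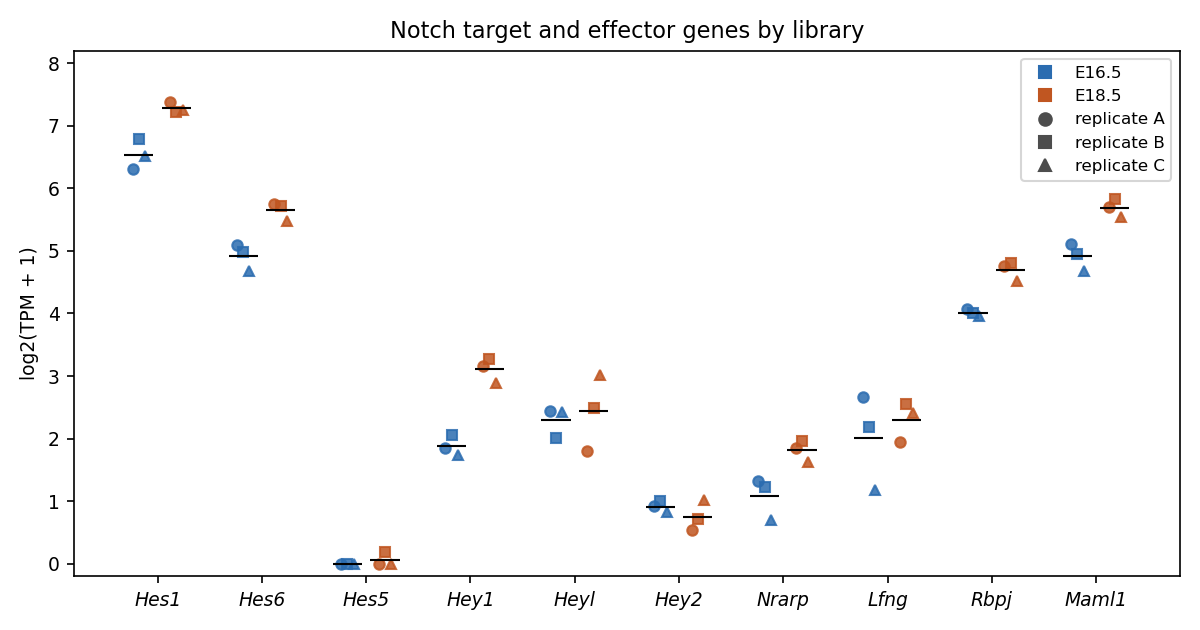
Level of each of the 10 genes in each library, as log2(TPM + 1). Colors mark the stage, symbols the replicate letter, and horizontal lines the mean of 3 libraries. Hes1 was highest in every library, Hes5 had 1 read in all, and for Hes1, Hes6, Hey1, Nrarp, Rbpj and Maml1 all E18.5 libraries lie above all E16.5 libraries.

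Of the 8 members that passed the level filter, 5 rose from E16.5 to E18.5 and 0 fell, where 26.0% of all genes tested rose and 5.22% fell. The genes that rose were Hes1, Hes6, Hey1, Rbpj and Maml1. At an unadjusted p under 0.05, 6 of the 8 were higher and 0 lower, where 46.7% of all genes passed in either direction. With limma voom on the recovered reads 5 were called higher and 0 lower, where 20.6% of all genes were called higher. Hes5 and Hey2 had means under 1 TPM and were not tested. The stages did not overlap for 6 members, all higher at E18.5, against 45.0% of all genes tested. The median log2 fold change of the 8 was 0.73, beside 0.42 for all genes.

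The calls depended on how the libraries were scaled. With median-of-ratios scaling, 2 members rose (Hey1 and Maml1) and 0 fell, where 6.81% of all genes rose and 10.4% fell, and the median of the 8 was 0.29. At an unadjusted p under 0.05, 3 of the 8 were higher, a share close to the 34.1% of all genes that passed in either direction. The calls also depended on single libraries. Without E18.5 replicate A, limma called 0 of the 8 (5 at an unadjusted p under 0.05, which 37.9% of all genes passed). The calls over all genes then went from 7000 to 1472. Without E18.5 replicate B it called 3 higher (Hes1, Hey1 and Maml1), where 2100 of the 22200 genes tested were called higher.

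**Figure D2:**
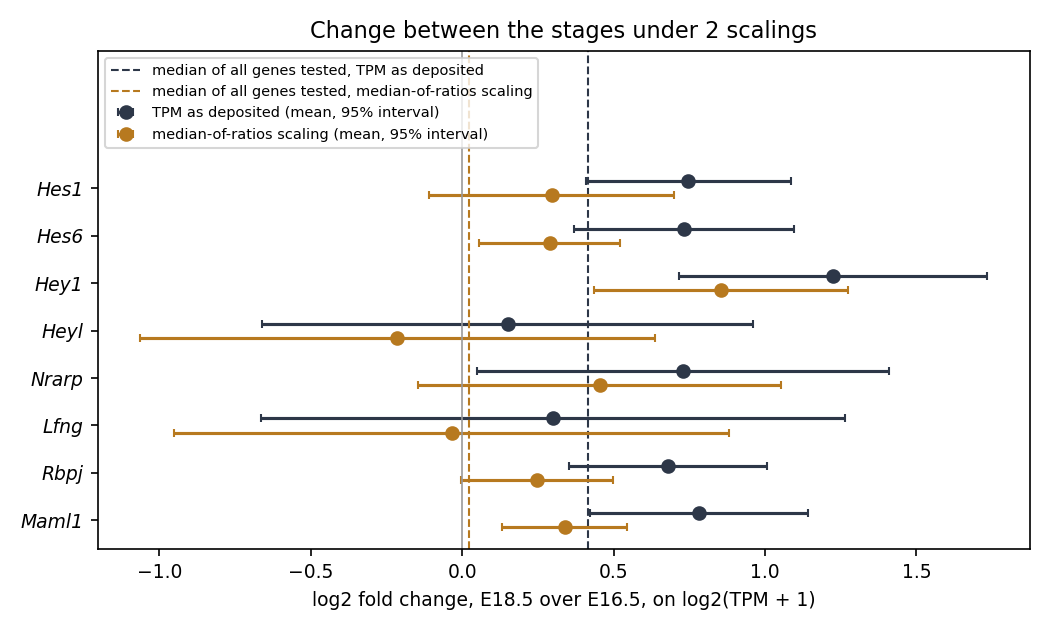
Log2 fold change of the 8 members tested, E18.5 over E16.5 on log2(TPM + 1), with TPM as deposited (dark) and after median-of-ratios scaling (ochre). Points are the fitted values, bars their 95% intervals, and dashed lines the medians of all 22452 genes under each scaling (0.42 and 0.021). Hey1 and Maml1 are the members with an adjusted p under 0.05 under both.

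Hes1 encodes the repressor most often read as the output of Notch signaling in the developing bile duct. It lies at chr16:30064384-30067796 on the plus strand. In the order of replicates A, B and C, its level was 78.4, 109 and 91.0 TPM at E16.5 and 166, 148 and 152 TPM at E18.5, from 1257 to 2319 reads. All E18.5 libraries were above all E16.5 libraries. The mean went from 92.9 ± 15.6 to 155 ± 9.74 TPM (SD, n = 3), a log2 fold change of 0.75 (SE 0.14, adjusted p = 0.0146). Its mean exceeded that of 94.8% of protein-coding genes at the earlier stage and 97.1% at the later. With median-of-ratios scaling it was 0.30 and the call was lost (adjusted p = 0.265), and without E18.5 replicate A it was also lost (adjusted p = 0.0587). Quantile normalization kept the call (0.58, adjusted p = 0.0377).

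Hes6, at chr1:91411483-91414038 on the minus strand, encodes a Hes family member that counteracts HES1 rather than carrying its signal. It measured 33.3, 30.5 and 24.5 TPM at E16.5 and 53.0, 51.6 and 43.4 TPM at E18.5. The stages did not overlap, and replicate C was the lowest in each. The mean went from 29.4 ± 4.46 to 49.4 ± 5.18 TPM (SD, n = 3), a log2 fold change of 0.73 (SE 0.15, adjusted p = 0.0177). The call was lost with median-of-ratios scaling (0.29, adjusted p = 0.0883) and without E18.5 replicate A (adjusted p = 0.0674) or B (adjusted p = 0.0533). Quantile normalization kept it (0.41, adjusted p = 0.0437).

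Hes5, at chr4:154960923-154962371 on the plus strand, encodes a Notch-responsive repressor best known from neural progenitors. No read was counted in 5 libraries and 1 read, or 0.144 TPM, in E18.5 replicate B. A count of 0 allows up to 3 reads, or between 0.257 and 0.542 TPM depending on the library. Although its window carried GTGGGAA letters on both strands, at -226 and -83, its transcript was not detectable at this depth. Part of its exons (31.8%) overlaps a gene on the other strand, Gm20421, which was listed at 0 in every library. The remaining relatives Hes2, Hes3, Hes7 and Helt were also near 0, with a summed level of 0.384-0.852 TPM in the E16.5 libraries and 0.408-0.953 TPM in those of E18.5. The most abundant of them was Hes7, at 0.285 ± 0.313 and 0.434 ± 0.454 TPM (SD, n = 3).

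The Hey genes were present at low levels. Hey1 encodes a repressor that is a direct Notch target in several tissues, and lies at chr3:8663359-8667256 on the minus strand. Its level was 2.61, 3.18 and 2.34 TPM at E16.5 and 7.97, 8.69 and 6.41 TPM at E18.5, from 61 to 178 reads. The lowest E18.5 library was well above the highest E16.5 library. The mean went from 2.71 ± 0.428 to 7.69 ± 1.16 TPM (SD, n = 3), a ratio of 2.84, and the log2 fold change of 1.23 (SE 0.22, adjusted p = 0.0131) was larger than that of 92.0% of all genes tested. It was also called with median-of-ratios scaling, at 0.86 (adjusted p = 0.0260), and not without E18.5 replicate A (1.20, adjusted p = 0.0532).

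Heyl, at chr4:123233556-123249875 on the plus strand, encodes a relative of Hey1 that is known from vascular smooth muscle, where it is a target of the receptor NOTCH3. It measured 4.42, 3.03 and 4.34 TPM at E16.5 and 2.49, 4.63 and 7.13 TPM at E18.5. The E18.5 libraries spanned a factor of 2.87 and lay on both sides of the E16.5 values. The mean was 3.93 ± 0.780 and 4.75 ± 2.32 TPM (SD, n = 3), and the log2 fold change of 0.15 (SE 0.34, 95% interval -0.66 to 0.96) did not pass the test (adjusted p = 0.750). Its sign turned with median-of-ratios scaling (-0.21) and without E18.5 replicate C (-0.14).

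Within each stage, but not across the stages, Heyl ordered the libraries as most mesenchymal markers did. From low to high, the order was B, C, A at E16.5 and A, B, C at E18.5. Of the 9 mesenchyme markers, 7 had exactly this order at both stages (Col1a1, Col1a2, Col3a1, Dcn, Pdgfra, Pdgfrb and Lum), as did 5 of 7 smooth muscle and pericyte markers (Acta2, Myh11, Rgs5, Pdgfrb and Des), with Pdgfrb in both lists. The order was shared by 0 of 11 cholangiocyte markers, 0 of 11 hepatoblast markers, 2 of 11 endothelial markers, 1 of 5 arterial markers and 594 of the 22452 genes tested, or 2.65%. Acta2, the smooth muscle actin, measured 23.4, 7.77 and 15.6 TPM at E16.5 and 13.8, 23.3 and 38.4 TPM at E18.5. The 8 smooth muscle and pericyte markers summed to 25.5-56.7 TPM in the E16.5 libraries and 41.3-104 TPM in those of E18.5, none of them at 0, and 1 of 7 tested rose (0 after rescaling). Across the stages the mesenchyme sum was higher in every E18.5 library than in any E16.5 library, while Heyl was lowest of all in E18.5 replicate A. The comparison was made with these values in view, in 6 libraries, and the part of mesenchymal or smooth muscle RNA in the level of Heyl was not tested.

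Hey2, at chr10:30832359-30842801 on the minus strand, encodes a repressor of heart and arterial development. It measured 0.889, 1.005 and 0.764 TPM at E16.5 and 0.446, 0.639 and 1.02 TPM at E18.5, from 14 to 36 reads. The stages overlapped, with E18.5 replicate C above all others, and the exact permutation test gave p = 0.5 (0.714 adjusted over the 10 members). The 6 arterial markers summed to 23.6-34.3 TPM in the E16.5 libraries and 36.8-71.7 TPM in those of E18.5, and 2 of the 5 tested rose, Efnb2 (1.14, adjusted p = 0.0261) and Unc5b (1.02, adjusted p = 0.0375). Neither passed with median-of-ratios scaling (adjusted p = 0.109 and 0.210).

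Nrarp and Lfng are Notch targets that act back on the pathway. Nrarp, at chr2:25180758-25183339 on the plus strand, encodes an ankyrin repeat protein that limits the lifetime of the nuclear Notch complex. It measured 1.49, 1.34 and 0.631 TPM at E16.5 and 2.60, 2.88 and 2.098 TPM at E18.5, from 13 to 46 reads. The stages did not overlap, but E16.5 replicate C stood below the other libraries of its stage. The mean was 1.15 ± 0.459 and 2.53 ± 0.396 TPM (SD, n = 3), and the log2 fold change of 0.73 (SE 0.29, 95% interval 0.048 to 1.41) did not pass the adjusted threshold (adjusted p = 0.0906, and 0.0743 to 0.388 over 13 alternatives). With median-of-ratios scaling it was 0.45 (adjusted p = 0.249). Most of its exon sequence (79.4%) is covered by the antisense gene Gm38287, listed at 0 in every library.

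Lfng, at chr5:140607320-140615545 on the plus strand, encodes a glycosyltransferase that extends sugars on the Notch receptors and so alters which ligands they respond to. It measured 5.31, 3.53 and 1.25 TPM at E16.5 and 2.86, 4.84 and 4.33 TPM at E18.5. The stages overlapped, and E16.5 replicate C was the lowest of all libraries. The mean was 3.36 ± 2.03 and 4.01 ± 1.03 TPM (SD, n = 3), and the log2 fold change of 0.30 (SE 0.41, 95% interval -0.67 to 1.27) did not pass the test (adjusted p = 0.586). Its sign turned with median-of-ratios scaling (-0.035) and without E16.5 replicate C (-0.12).

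E16.5 replicate C also held less of the biliary transcripts, which made it possible to ask which of the Notch genes were low along with them. In that library, relative to the mean of replicates A and B, Krt19 was at 0.189, Epcam at 0.298 and Sox9, the gene behind the sorting gate, at 0.405. Lfng was at 0.283, within the range of these, and Nrarp at 0.446, just above it. Hes6 (0.770), Maml1 (0.773), Hey2 (0.807) and Hey1 (0.809) were less reduced, Rbpj (0.942) and Hes1 (0.970) were nearly level, and Heyl (1.16) was higher. Many pancreatic transcripts also fell from A to B to C at E16.5, the order of Lfng and Nrarp. Hes6, Maml1 and Rbpj had that order as well, and the acinar markers Cela1, Amy2a5 and Pnlip did not. How many of all genes had it was not counted. The endocrine marker Chgb measured 23.4, 12.8 and 0.915 TPM and the acinar marker Ctrb1 1914, 167 and 53.1 TPM. The 10 endocrine markers summed to 5.18-68.3 TPM over the E16.5 libraries and the 8 acinar markers to 79.3-2414 TPM. Neurog3, Neurod1 and Ins2 were at 0 in E16.5 replicate C, but Neurod1 and Ins2 also in E18.5 replicate C. Ptf1a was at 0 in every library except E16.5 replicate A. The part of biliary or pancreatic RNA in the levels of Lfng and Nrarp was not tested. This rests on 1 library, and on 13 reads for Nrarp and 25 for Lfng.

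Rbpj and Maml1 encode the fixed parts of the nuclear complex, the DNA-binding subunit and a coactivator. Rbpj, at chr5:53466152-53657362 on the plus strand, measured 15.8, 15.2 and 14.6 TPM at E16.5 and 26.1, 27.1 and 21.8 TPM at E18.5. It had the closest replicates of the 10 genes at E16.5, where the highest library was 1.08 times the lowest, and the stages did not overlap. The mean went from 15.2 ± 0.603 to 25.02 ± 2.81 TPM (SD, n = 3), a log2 fold change of 0.68 (SE 0.14, adjusted p = 0.0165). The call was lost with median-of-ratios scaling (0.25, adjusted p = 0.152), with quantile normalization (0.30, adjusted p = 0.101) and without E18.5 replicate A (adjusted p = 0.0664) or B (adjusted p = 0.0522).

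Maml1, at chr11:50255634-50292311 on the minus strand, measured 33.4, 30.0 and 24.5 TPM at E16.5 and 51.3, 55.9 and 45.5 TPM at E18.5. The stages did not overlap. The mean went from 29.3 ± 4.48 to 50.9 ± 5.22 TPM (SD, n = 3), a log2 fold change of 0.78 (SE 0.15, adjusted p = 0.0151). With median-of-ratios scaling it was 0.34 and still passed (adjusted p = 0.0429), and without E18.5 replicate A it did not (adjusted p = 0.0585). The antisense gene Gm26542, at 8.41 TPM or more in every library, covers 2.44% of its exon sequence.

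Ratios of genes within a library do not depend on how libraries are scaled to each other. The 13 ratios formed here were picked with the values in view. The log2 ratio of Hey1 to Hes1 was -4.91, -5.10 and -5.28 for A, B and C of E16.5 and -4.38, -4.09 and -4.57 at E18.5. Hey1 was thus higher relative to Hes1 in every E18.5 library, by 0.75 on the mean log2 scale (exact permutation p = 0.1, the smallest possible, 0.65 adjusted over the 13), and by 0.66 without E16.5 replicate C. Hes6, Rbpj and Maml1 relative to Hes1 moved by less than the spread between replicates, by -0.0018, -0.038 and 0.049 (exact permutation p = 1, 0.9 and 0.9), or by -0.12, -0.058 and -0.066 without that library.

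**Figure D3:**
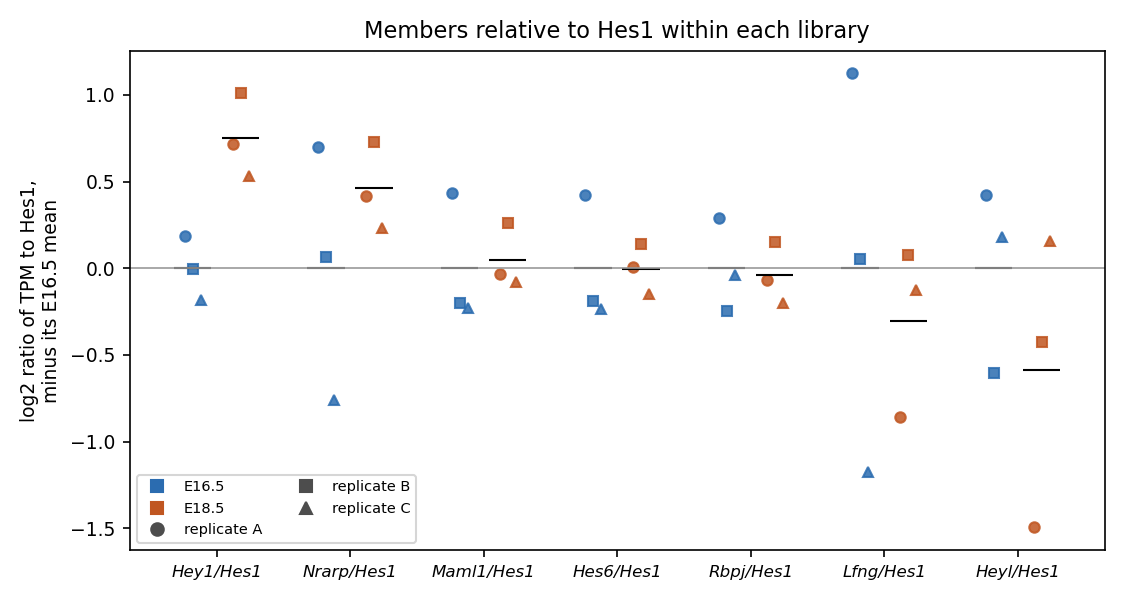
Log2 ratio of each member to Hes1 in the same library, with the E16.5 mean of each ratio set to 0. Colors mark the stage, symbols the replicate letter and lines the mean of 3 libraries. For Hey1 the E18.5 libraries all lie above the E16.5 libraries, and the other ratios overlap.

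Relative to the gate gene, Hes1 was lower in the E18.5 libraries. The log2 ratio of Hes1 to Sox9 was -0.46 ± 0.746 at E16.5 and -1.40 ± 0.229 at E18.5 (SD, n = 3), and the stages did not overlap (difference -0.93, exact permutation p = 0.1, 0.65 adjusted). Much of the difference came from E16.5 replicate C, and without it the value was -0.51. The ratio of Hes1 to Krt19 differed by -1.21 (exact permutation p = 0.2), or -0.42 without that library, and its stages overlapped. Sox9 itself rose from 138 ± 60.7 to 411 ± 56.4 TPM, a log2 fold change of 1.68 (adjusted p = 0.0174). The ratio of Hey1 to Sox9 differed by -0.18 (exact permutation p = 1) and that of Heyl to Notch3 by -0.085 (exact permutation p = 0.9), with overlapping libraries in both. Both signs turned without E16.5 replicate C (0.15 and 0.046).

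Some genes of biliary cells are candidate targets of the Notch complex as well. Sox9, Spp1, Krt19, Krt7 and Epcam were listed as such candidates, and each of them rose. The secreted protein osteopontin, Spp1, went from 1171 ± 655 to 9587 ± 2771 TPM (log2 fold change 3.19, adjusted p = 0.0106). Krt19, Krt7 and Epcam, of duct epithelium, had log2 fold changes of 1.94, 1.38 and 1.78. They serve as biliary markers as well, so their change does not separate a response from a larger share of biliary cells. With median-of-ratios scaling Sox9 (adjusted p = 0.0392) and Spp1 (adjusted p = 0.0173) passed, and Krt19, Krt7 and Epcam did not (adjusted p = 0.122, 0.113 and 0.0725). Of Notch targets known from other tissues, Cdkn1a, a cell cycle inhibitor, rose from 22.3 ± 3.84 to 61.5 ± 9.40 TPM (1.43, adjusted p = 0.00842, and 0.0181 after rescaling), and the more abundant Ccnd1, a cyclin, was at 125 ± 27.7 and 176 ± 39.4 TPM (adjusted p = 0.134).

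The remaining genes of the pathway were described by their role. Over all 53 listed, 46 were tested, 23 rose and 2 fell, where 26.0% of all genes tested rose and 5.22% fell. The median log2 fold change was 0.52, beside 0.42 for all genes. With median-of-ratios scaling 6 rose and 3 fell, where 6.81% of all genes rose and 10.4% fell. The median was then 0.077, beside 0.021 for all genes. Counts by role, here and for the partners of Rbpj and Maml1, are to be read beside the same shares. Of the 4 receptors 1 rose, Notch2, from 162 ± 32.8 to 339 ± 48.8 TPM (1.07, adjusted p = 0.0128), and 2 of 4 ligands tested rose, Jag1 (1.26, adjusted p = 0.0198) and Dll1 (1.34, adjusted p = 0.0191). With median-of-ratios scaling Notch2 passed (0.62, adjusted p = 0.0260), while Jag1 (adjusted p = 0.0522) and Dll1 (adjusted p = 0.0503) did not. Of the proteolysis genes, 3 of 9 rose and 1 fell, and the most abundant, the protease gene Adam10, was at 158 ± 8.03 and 181 ± 30.9 TPM (adjusted p = 0.345). Of the glycosylation genes, which work beside Lfng, 1 of 4 rose, the O-glucosyltransferase Poglut1 (0.88, adjusted p = 0.0340). With median-of-ratios scaling 1 proteolysis gene rose (Aph1b, adjusted p = 0.0277) and 1 fell (Psen2, adjusted p = 0.0151), and Poglut1 did not pass (adjusted p = 0.133).

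The partners of Rbpj and Maml1 were of both kinds, coactivators and corepressors. Of the 6 coactivators 4 rose, among them Maml2, a second Mastermind gene, from 6.32 ± 2.36 to 15.9 ± 0.745 TPM (1.26, adjusted p = 0.0166), and the most abundant, the acetyltransferase gene Ep300, from 47.9 ± 4.31 to 71.8 ± 5.85 TPM (0.57, adjusted p = 0.0179). Of the 8 corepressors 7 rose, among them Tle2, a Groucho gene, from 12.7 ± 3.07 to 29.8 ± 1.84 TPM (1.20, adjusted p = 0.0113). With median-of-ratios scaling 1 of the coactivators (Maml2, adjusted p = 0.0422) and 2 of the corepressors (among them Tle2, adjusted p = 0.0197) rose, and Ep300 did not pass (adjusted p = 0.232). Of 10 genes of trafficking and turnover 5 rose, among them Dtx3, a Deltex gene (1.504, adjusted p = 0.00852), and the ligand-activating ubiquitin ligase Mib1 (0.55, adjusted p = 0.0219). After the same rescaling 1 of these 10 rose, Dtx3 (1.06, adjusted p = 0.0117), and 1 fell, Numb (-0.40, adjusted p = 0.0496), while Mib1 was at 0.099 (adjusted p = 0.366). Dlk1, a Delta-like protein that is also a hepatoblast marker, fell from 479 ± 37.0 to 107 ± 18.8 TPM (-2.17, adjusted p = 0.00398), also after rescaling (-2.62, adjusted p = 0.00799).

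**Figure D4:**
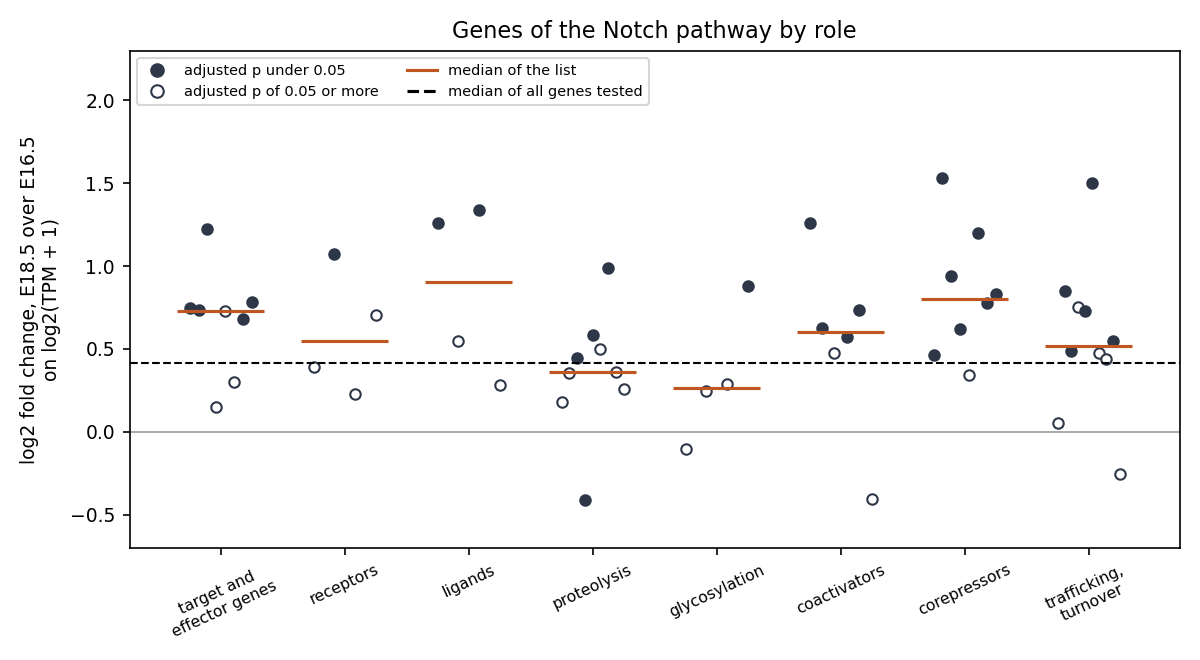
Log2 fold change of the Notch genes tested, E18.5 over E16.5 on log2(TPM + 1), grouped by role with 1 point per gene. Filled points have an adjusted p under 0.05, orange lines are the medians of the lists and the dashed line is the median of all 22452 genes (0.42). The 8 target and effector genes have a median of 0.73, and the corepressors one of 0.80.

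The genes whose pattern over the 6 libraries was most like the most abundant members were found by the root mean square difference of centred log2(TPM + 1), among 11378 protein-coding genes. For Hes1 these were Crp (0.0845), Abcb1a (0.0879) and Otub2 (0.0947), where the median over the genes was 0.334. For Maml1 they were Fbxo42 (0.0269), Ehmt1 (0.0285) and Suds3 (0.0286), and for Hes6 they were Odf2l (0.0332), Plod1 (0.0348) and Phf21a (0.0362). The nearest gene was thus farther from Hes1 than from Maml1 or Hes6. All points share the same 6 libraries and the same general shift.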

How the data were processed

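RNA from Sox9-GFP+ fetal liver cells was sequenced with a stranded total RNA kit, with 3 libraries per stage (E16.5, E18.5). The authors trimmed the reads, used HISAT2 (2.1.0) for alignment to GRCm38, HTSeq (0.5.4p3) for gene counts under GENCODE vM15, and turned these into TPM; the strand setting is not given in the sources used here. The deposited TPM of 52550 genes sum to 1000000 in each library. Names, places and exon lengths came from GENCODE vM21 (52403 identifiers matched), and reads were recovered from TPM and exon length, whole within 0.01.

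The test between stages was limma 3.58.1 (R 4.3.3, empirical Bayes with a trend), run on log2(TPM + 1) for the 22452 genes averaging 1 TPM or more, at an adjusted p under 0.05. The steps were tested on simulated data. Exact permutation tests used Python 3.11.15. Members and gene lists were chosen with earlier results of these data known. All members are named; of other Notch lists, the called genes that differed by 1 or more on the log2 scale and 5 TPM in the higher stage, and the most abundant gene; likewise the most like genes of the 3 most abundant members. Some genes that meet this rule are not reported here. Ratios and library orders were chosen after seeing the data, as were the other genes named there. Alternatives were another pseudocount, filter, scaling or tool, a block for the replicate letters, and omission of single libraries.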

Additional observations from a re-analysis of the deposited data

How the results depend on the processing

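The 5 calls among the Notch target and effector genes were also made with a pseudocount of 0.1, no filter, a mean of at least 5 TPM, robust estimation, limma voom on the recovered reads, and without any one E16.5 library or E18.5 replicate C. Median-of-ratios scaling left 2 calls, and leaving out 1 library gave 0 to 5. Quantile normalization left 4 (Hes1, Hes6, Hey1 and Maml1), where 1916 of the 22452 genes tested rose. Over all genes, 7000 calls became 4282 with no filter, 3863 with median-of-ratios scaling, 3796 with quantile normalization and 1472 to 5686 without 1 library. The cause was not tested. Heyl turned negative with the scaling by median of ratios (-0.21), with quantile normalization (-0.27) and with voom (-0.058), and gave -0.14 to 0.47 without 1 library. Lfng turned negative with the first of these (-0.035) and the second (-0.12), and gave -0.12 to 0.63 without 1 library. No other member changed sign.

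With the replicate letters as a replicate block, 5 members and 7314 genes were called, and Hes1 had an adjusted p of 0.0244. The correlation of deviations between libraries with the same letter was -0.0425, 0.0814 and 0.14 for A, B and C, and not every library correlated best with its own letter, so the letters were not taken to pair the pools. Nrarp, Hey2 and Hes5 rest on at most 46 reads in a library, which limits what could be detected for them.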
